A study of Mus musculus with 8 samples.

Results

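The genes described here are 10 brakes on the transcriptional co-activator YAP: the angiomotins Amot, Amotl1 and Amotl2, the kinases Lats1 and Lats2, and the upstream regulators Nf2, Ptpn14, Wwc1, Wwc2 and Frmd6. They were picked by gene symbol from the 48527 genes of the per-library table, each matched exactly 1 row, and all 10 passed the filter on level (a mean of at least 1 FPKM over the libraries). The samples are mouse embryonic fibroblasts (MEFs), connective tissue cells grown from mouse embryos, whose strain, sex and passage are not given in the labels. All 8 cultures were transduced by lentivirus, kept in medium with 1 µg/mL doxycycline and, per the design text, sorted for the reporter that the vector encodes. The control group (EV, 4 libraries) received an empty vector with GFP (replicates 1 and 2) or mCherry (replicates 3 and 4), and the YAP group (4 libraries) received wild-type YAP fused to GFP (replicates 1 and 2) or to mCherry (replicates 3 and 4). No label says whether replicates were separate cultures or embryos, so the p-values speak only to the variation among these libraries.

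In the Hippo pathway a chain of kinases ends in LATS1 and LATS2, which phosphorylate YAP so that it is held in the cytoplasm and degraded. Angiomotins are junction and actin adaptors whose PPxY motifs bind the WW domains of YAP, and they can retain it outside the nucleus with or without LATS. NF2, FRMD6, the WWC proteins and PTPN14 act at the cell membrane and junctions, where they promote LATS activity or bind YAP directly. Nuclear YAP works with TEAD factors, and LATS2 and AMOTL2 are known in other cells as genes that YAP and TEAD activate, a negative feedback. The comparison of the YAP with the EV libraries asks which of these brakes differ in MEFs transduced with a YAP vector.

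FPKM summed to between 733152 and 1018404 per library, and the absolute depth behind these values is not known. The Yap1 row did not show the labelled overexpression, as it lay between 88.4 and 93.2 FPKM in the EV libraries and between 80.0 and 84.9 FPKM in the YAP libraries (log2 difference -0.14, SE 0.049, limma adjusted p = 0.259). The labels do not give the species or sequence of the YAP insert, so whether its reads count towards this row is not known. The widely used YAP targets Cyr61, Ctgf and Ankrd1 were higher in the YAP libraries by 0.88, 0.87 and 1.09 on the log2 scale (limma adjusted p = 0.00273, 0.0122 and 0.017). Without any 1 library Cyr61 and Ctgf still passed, whereas Ankrd1 passed in 2 of the 8 such fits (adjusted p 0.0281 to 0.0671). In fits of the GFP or the mCherry libraries alone none of these genes passed. The limma adjusted p was 0.0598 and 0.192 for Cyr61, 0.15 and 0.276 for Ctgf, and 0.136 and 0.386 for Ankrd1. With a replicate block that pairs libraries by number, Cyr61 passed (0.0439) but Ctgf (0.108) and Ankrd1 (0.077) did not.

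Amotl2, Lats2 and Amot rose in the YAP libraries, and none of the other 7 brakes passed the test in either direction. The rises were 3.55-fold for Amotl2, 1.52-fold for Lats2 and 1.45-fold for Amot, on the scale of log2(FPKM + 0.5). By the same rule 0.934% of the 13276 genes tested were called higher and 0.821% lower, against 3 and 0 of the 10 brakes. An unadjusted p under 0.05 was found for 4 brakes (also Wwc2), against 14.5% of genes. The EV and YAP libraries did not overlap for 4 brakes, these 3 and Frmd6, all higher with YAP, where the background is 4.63% of genes higher and 4.83% lower. Of the 10 log2 differences 9 lay above 0, with a median of 0.234, while the median of all genes tested was -0.0038. These members were chosen with earlier results of the same data known, so the counts describe them and are no independent evidence.

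**Figure D1:**
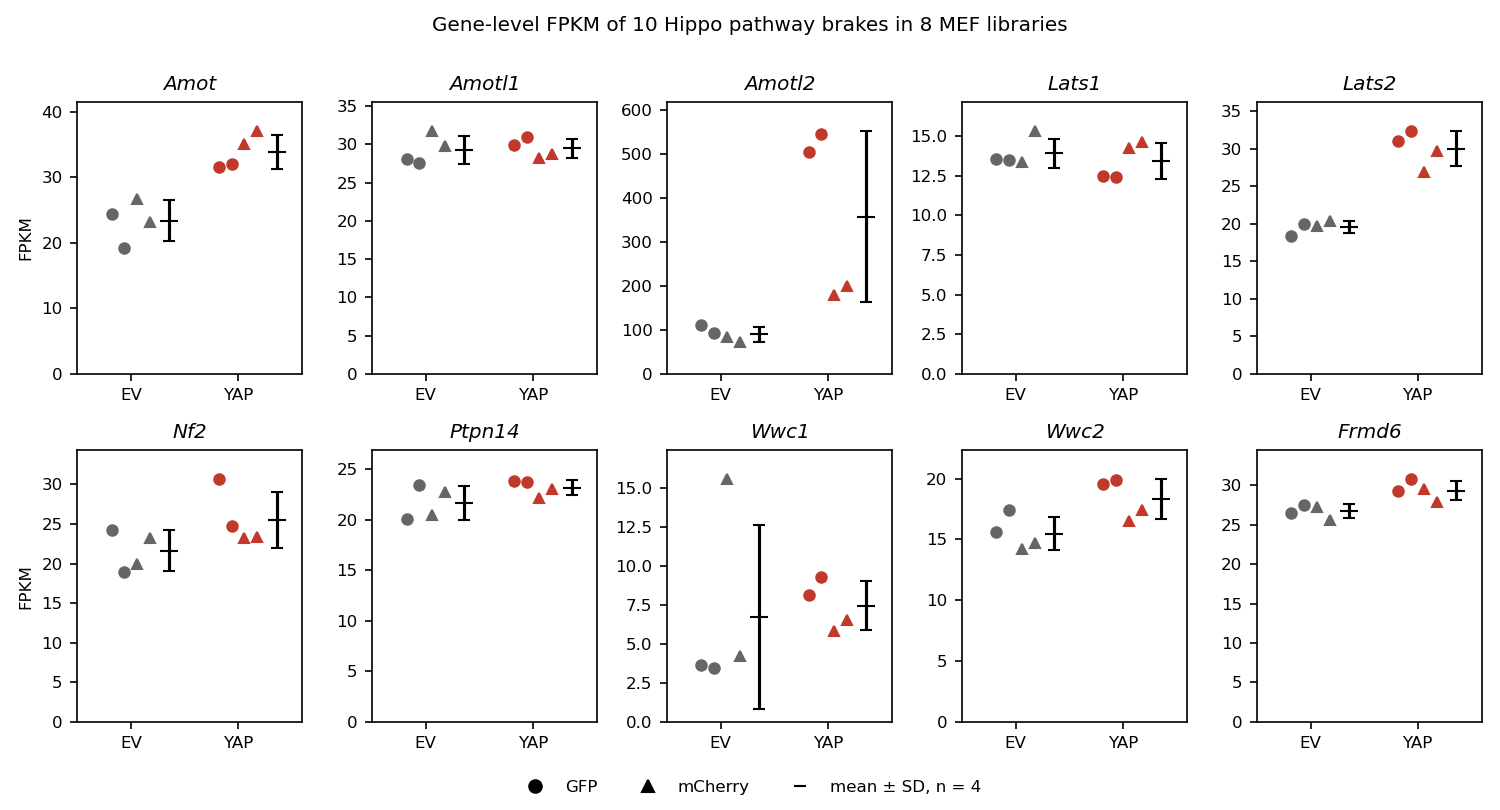
Gene-level FPKM (vertical axis, linear from 0) of each of the 10 brakes in the 4 EV and 4 YAP libraries. Circles are GFP and triangles mCherry libraries, and the bar beside each group is the mean ± SD (n = 4). The groups do not overlap for Amotl2, Lats2, Amot and Frmd6, and a single EV library carries the spread of Wwc1.

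Amotl2 was the most abundant brake and the one that changed most. The EV libraries, in replicate order, had 111, 92.9, 83.7 and 71.6 FPKM. The YAP libraries had 505, 546, 180 and 200 FPKM. Every YAP library lay above every EV library, and the YAP libraries formed a GFP pair (505 and 546 FPKM) and a lower mCherry pair (180 and 200 FPKM). Group means of 89.7 ± 16.5 for EV and 358 ± 194 FPKM for YAP (± SD, n = 4 in each group here and below) gave a log2 difference of 1.83 (SE 0.218, 95% interval 1.31 to 2.34, limma adjusted p = 0.014). The call was lost without EV replicate 1 (adjusted p = 0.0575) or YAP replicate 2 (0.052), with log2 differences of 1.77 and 1.70. It was also lost with no reporter term (adjusted p = 0.0768) and in a fit of the mCherry libraries alone (0.133). Amotl2 (ENSMUSG00000032531) lies on chromosome 9, 102716672 to 102733418, plus strand, GRCm38.

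Amot, the founding member of the family, had 24.5, 19.2, 26.7 and 23.2 FPKM in the EV libraries, again in replicate order, against 31.5, 32.0, 35.0 and 37.0 FPKM in the YAP libraries. All YAP values lay above all EV values, and the mCherry libraries were the upper pair in the YAP group. Its mean was 23.4 ± 3.13 FPKM with EV and 33.9 ± 2.60 FPKM with YAP, a log2 difference of 0.53 (SE 0.0925, 95% interval 0.31 to 0.75, limma adjusted p = 0.0432). This call stood close to the threshold and was lost without any 1 of the 8 libraries (adjusted p 0.0621 to 0.146), with the difference between 0.46 and 0.60. Amot (ENSMUSG00000041688) is on the X chromosome, 145446425 to 145505181, minus strand.

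Amotl1, the remaining angiomotin, did not pass the test. It had 28.0, 27.5, 31.7 and 29.7 FPKM with EV, against 29.8, 31.0, 28.2 and 28.7 FPKM with YAP. The groups overlapped, and the log2 difference was 0.011 (95% interval -0.16 to 0.18, adjusted p = 0.971), so a change of the size seen in Amot lies outside its interval. Within GFP both YAP libraries were above both EV libraries, and within mCherry both were below. Amotl1 (ENSMUSG00000013076) lies on chromosome 9, 14541966 to 14645056, minus strand, so Amotl1 and Amotl2 share a chromosome but lie far apart.

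Lats2 was the kinase that rose. With EV it had 18.4, 19.9, 19.7 and 20.4 FPKM. With YAP it had 31.1, 32.4, 26.96 and 29.8 FPKM. The lowest YAP library was well above the highest EV library, and the GFP pair was again the upper pair. Averaged over libraries it had 19.6 ± 0.835 FPKM with EV and 30.0 ± 2.30 FPKM with YAP, which is 0.60 higher on the log2 scale (SE 0.078, 95% interval 0.42 to 0.78, limma adjusted p = 0.017). The difference kept to between 0.56 and 0.65 without any 1 library, but the call held only without YAP replicate 3 (adjusted p = 0.0317) and was otherwise lost, with adjusted p from 0.05 (without EV replicate 4) to 0.0763 (without YAP replicate 2). Lats2 (ENSMUSG00000021959) is on chromosome 14, 57689662 to 57758388, minus strand. GENCODE M21 places the protein-coding gene model Gm49361 on the same strand with 2955 of the 6971 exonic bases of Lats2 in common. Gm49361 had no row in the per-library table after repeated identifiers were left out, and the sources used here do not say how shared reads were assigned. The processed pseudogene Gm20430 also overlaps the bounds of Lats2, on the opposite strand. It had 802 to 1248 FPKM, shared 0 exonic bases with Lats2 and did not pass the test (log2 -0.025, adjusted p = 0.959).

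Lats1, the paralogous kinase, had 13.5, 13.5, 13.4 and 15.3 FPKM with EV, against 12.5, 12.4, 14.3 and 14.6 FPKM with YAP. The GFP libraries with YAP were its lowest, its groups overlapped, and the log2 difference was -0.050 (95% interval -0.22 to 0.12, adjusted p = 0.801), an interval that does not reach the difference of Lats2. Lats1 (ENSMUSG00000040021) lies on chromosome 10, 7681214 to 7716460, plus strand.

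By per-library FPKM, which is scaled to transcript length, the paralogs contributed unequally to the sums of their families. The summed FPKM of the 3 angiomotins was 142 ± 15.9 with EV (125 to 163) and 421 ± 193 with YAP (243 to 609). Amotl2 made up 62.7% ± 5.24 of that sum with EV and 82.0% ± 8.55 with YAP, and its lowest share with YAP (74.0%) was above its highest with EV (67.8%). Lats2 made up 58.5% ± 1.27 of the LATS sum with EV and 69.0% ± 3.28 with YAP, while the sum itself was 33.5 ± 1.56 and 43.5 ± 1.59 FPKM. The share of Wwc2 in the WWC sum was 72.5% ± 16.6 with EV and 71.3% ± 2.52 with YAP, a difference of -1.21 percentage points that turned on EV replicate 3 (47.9%). The other EV libraries had shares of 77.7% to 83.4%, all above the YAP libraries (68.2% to 73.9%), and without EV replicate 3 the difference was -9.44 percentage points. These sums and shares are descriptions of the members and carry no test. They also depend on how levels were estimated. In the control and YAP arms the authors' deposited table has Amotl2 at 2.50 and 1.67 times its per-library means. There Amotl1 is at 2.29 and 2.24 times and Amot at 1.11 and 1.13 times. The shares of Lats2 carry the limit of the exonic bases in common with Gm49361.

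**Figure D2:**
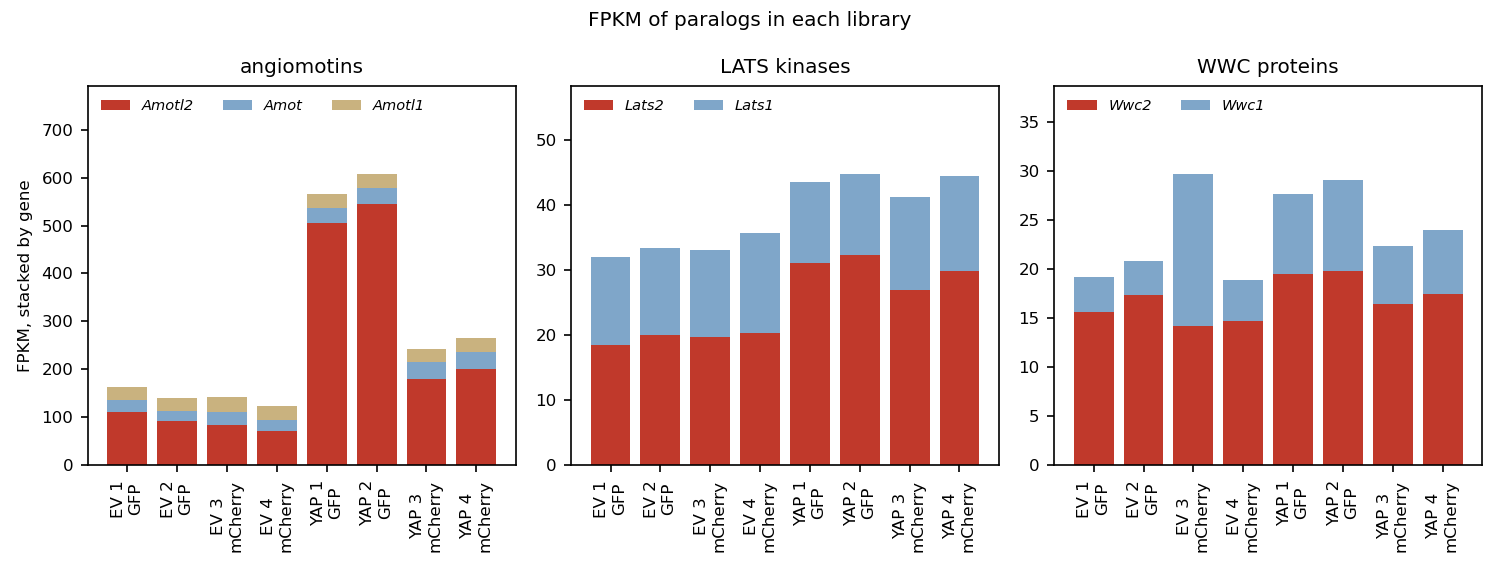
FPKM of the angiomotins, the LATS kinases and the WWC proteins, stacked by gene (vertical axes, linear from 0), in each of the 8 libraries. Amotl2 fills most of the angiomotin bars, from 57.5% to 67.8% with EV and from 74.0% to 89.7% with YAP, and EV replicate 3 alone has a tall Wwc1 segment.

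Among the membrane-linked brakes no gene passed the test. Wwc2, a WW-domain scaffold that binds LATS kinases, came nearest: it ranged from 14.3 to 17.4 FPKM with EV and from 16.5 to 19.9 FPKM with YAP (means 15.5 ± 1.39 and 18.3 ± 1.63), a log2 difference of 0.24 (95% interval 0.078 to 0.39, unadjusted p = 0.00929 and adjusted p = 0.17 in limma). The pooled groups overlapped and GFP libraries were the higher pair in both, while within each reporter both YAP libraries were above both EV libraries. Frmd6, a FERM-domain protein proposed as a counterpart of Drosophila Expanded, ranged from 25.6 to 27.5 FPKM with EV and from 27.8 to 30.7 FPKM with YAP. Its groups did not overlap, yet the log2 difference was small at 0.13 (95% interval -0.014 to 0.28, adjusted p = 0.388). Counted within reporters, both YAP libraries exceeded both EV libraries in GFP and in mCherry for 5 brakes (Amotl2, Lats2, Amot, Wwc2 and Frmd6), against 7.24% of all genes tested, and for 0 brakes were both lower, against 7.65%.

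Nf2, which encodes merlin, a FERM-domain tumour suppressor that brings LATS to the membrane, ranged from 18.9 to 24.3 FPKM with EV and from 23.2 to 30.6 FPKM with YAP. YAP replicate 1 was its highest library, the groups overlapped, and the log2 difference was 0.23 (95% interval -0.049 to 0.51, adjusted p = 0.435). Ptpn14, a FERM-domain tyrosine phosphatase that binds the WW domains of YAP, ranged from 20.1 to 23.4 FPKM and from 22.1 to 23.8 FPKM. Its log2 difference was 0.096 (95% interval -0.085 to 0.28, adjusted p = 0.627). A rise of the size of Amot, 0.53 on the log2 scale, lies above the upper bounds for Nf2, Ptpn14, Wwc2 and Frmd6.

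Wwc1 (KIBRA), the paralog of Wwc2, was the scarcest brake and its comparison turned on 1 library. The EV libraries had 3.62, 3.46, 15.5 and 4.21 FPKM, and those with YAP 8.14, 9.28, 5.84 and 6.54 FPKM. Apart from EV replicate 3, every EV library was below every YAP library. With all 8 libraries the log2 difference was 0.40 (SE 0.448, 95% interval -0.65 to 1.46, adjusted p = 0.734), and without EV replicate 3 it was 0.91 (adjusted p = 0.0984). The interval is too wide to tell a change like that of Amotl2 within mCherry from none.

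Nf2 (ENSMUSG00000009073) lies on chromosome 11, 4765845 to 4849536, minus strand, and Wwc1 (ENSMUSG00000018849) on the same chromosome, 35838400 to 35980527, minus strand. Ptpn14 (ENSMUSG00000026604) lies on chromosome 1, 189728268 to 189876695, plus strand, Wwc2 (ENSMUSG00000031563) on chromosome 8, 47823959 to 47990924, minus strand, and Frmd6 (ENSMUSG00000048285) on chromosome 12, 70825514 to 70902234, plus strand. Wwc2 shares 995 exonic bases with Cldn22 and Ptpn14 shares 177 with the antisense gene Gm26574, both on the opposite strand and both listed at 0 in all libraries. Reads of such pairs cannot be told apart unless counting used strand, which is not given in the sources used here.

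In the EV libraries the brakes spanned an order from Amotl2 (89.7 FPKM, above 91.5% of the genes tested) to Wwc1 (6.70 ± 5.89 FPKM, above 32.4%). Amotl1 came next after Amotl2, followed by Frmd6, Amot, Ptpn14, Nf2, Lats2, Wwc2 and Lats1. From Frmd6 to Lats2 each gene's range overlapped that of its neighbour in the order, as did those of Wwc2, Lats1 and Wwc1. In the YAP libraries Amot (33.9 FPKM) and Lats2 (30.0 FPKM) followed Amotl2, with ranges that overlapped each other and, for Lats2, those of Amotl1 and Frmd6.

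Amotl2 had its larger difference with the GFP vectors. Within GFP it went from 102 to 525 FPKM (log2 2.37, 95% interval 2.06 to 2.67, limma adjusted p = 0.00343) and within mCherry from 77.7 to 190 FPKM (log2 1.29, 95% interval 0.98 to 1.59, adjusted p = 0.0219). It was called higher in both, where the background is 0.67% of genes higher and 0.625% lower within GFP, and 0.241% higher and 0.158% lower within mCherry. The difference between these effects was -1.08 on the log2 scale (mCherry minus GFP, 95% interval -1.51 to -0.64), with an unadjusted p of 0.000876 and an adjusted p of 0.233 over all genes, so it did not pass. Over all genes 0.0452% passed with a larger and 0.0226% with a smaller effect in mCherry. Unadjusted p-values under 0.05 for this difference occurred in 9.81% of genes tested. The effects of Cyr61 were 0.83 within GFP and 0.93 within mCherry, those of Ctgf 0.85 and 0.89, and those of Ankrd1 1.17 and 1.01. A gap of this size was also seen outside the brakes: the tankyrase gene Tnks2, named after its values were seen, differed by 1.25 within GFP and -0.12 within mCherry (gap -1.37, unadjusted p = 0.000153), and the keratin gene Krt7 by 2.85 and 1.73 (gap -1.12, unadjusted p = 0.0928).

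Lats2 had a log2 difference of 0.71 within GFP (adjusted p = 0.032) and 0.49 within mCherry (adjusted p = 0.148), and the difference between them did not pass (-0.22, 95% interval -0.55 to 0.11, adjusted p = 0.639). Amot had nearly the same difference within both, 0.54 and 0.52, with an interval of -0.49 to 0.46 for the gap between them. For 9 of the 10 brakes the effect was numerically lower within mCherry, and for none did the gap pass. Among these, Amotl1 (0.13 within GFP, -0.11 within mCherry) and Wwc1 (1.19 and -0.38) changed sign. The median gap was -0.141 for the brakes and 0.0112 for all genes tested. The share of all genes with a gap below 0 was not counted. Between reporters, averaged over vectors, no brake passed either, where 0.0603% of genes were called higher and 0.0301% lower in mCherry: Amotl2 was lower in mCherry by log2 -0.93 (adjusted p = 0.28) and Wwc2 by log2 -0.20 (adjusted p = 0.392), and both had an unadjusted p under 0.05 (0.0036 and 0.0218), as did 10.6% of genes.

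**Figure D3:**
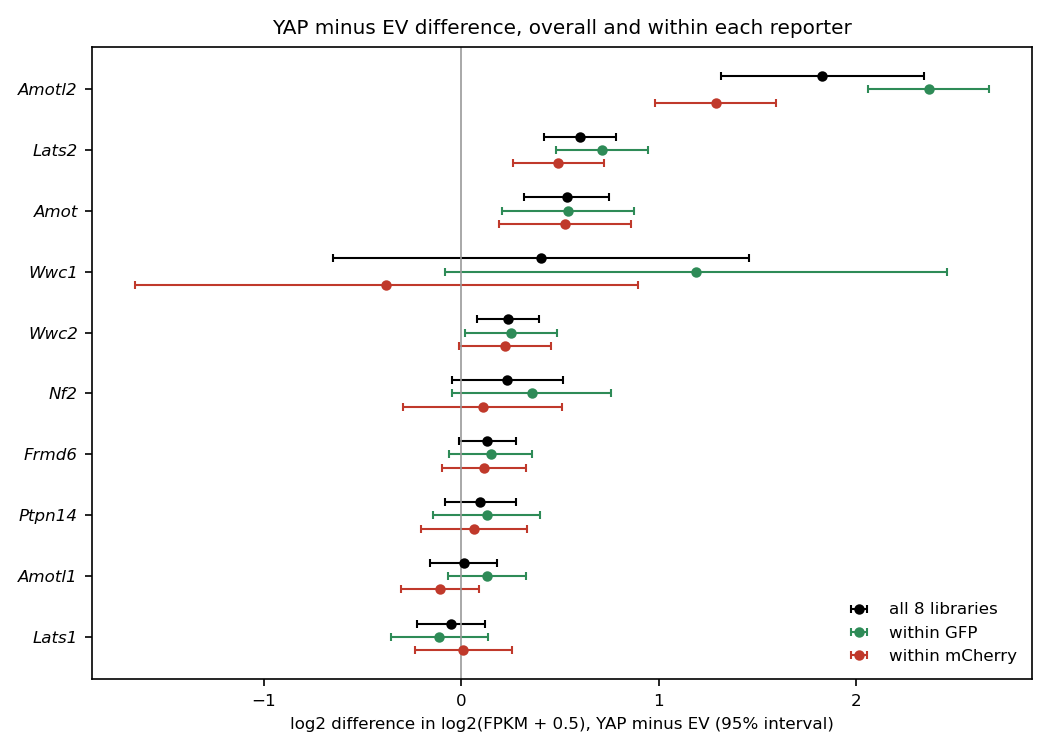
YAP minus EV differences in log2(FPKM + 0.5) for the 10 brakes (horizontal axis, log2 scale), with 95% intervals from limma, over all 8 libraries (black), within GFP (green) and within mCherry (red). Amotl2 has separate intervals in GFP and mCherry, while those of Lats2 and Amot overlap, and the Wwc1 intervals all cross 0.

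Short sequences around the start sites were set beside these differences because YAP reaches DNA through TEAD factors, whose core site is GGAATG. RefSeq start sites (GRCm38.p6) gave 12 windows for the 10 brakes, each with 250 bases before and 50 after the start, and GGAATG was searched on both strands. It occurred in 4 of the 10 brakes, Amotl2, Lats2, Ptpn14 and Wwc2, with 6 matches in all, of which 3 were in Wwc2. Over the 27025 genes with windows, 16.6% held at least 1 match, and 14.7% of all 32851 windows did. The AP-1 site TGANTCA, which is often found beside TEAD sites in enhancers occurred in none of the 12 windows and in 7.81% of all windows. The matches are shown with 10 bases on either side, each turned so that GGAATG (capitals) reads 5′ to 3′, so that the flanks can be compared.
Amotl2: tgctatgccaGGAATGtgagagtttc
Lats2: tgacgcccgtGGAATGccaacaatgt
Ptpn14: gggcgggccaGGAATGcgtccgggga
Wwc2, farthest upstream: gtagggcggaGGAATGcacagctcgc
Wwc2, middle: gttaagctcaGGAATGtggcggcgag
Wwc2, nearest to the start: gtggcggcgaGGAATGtgcatgcaga

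The Amotl2 match begins 65 bases before the start and reads CATTCC on the gene's strand, and the Lats2 match begins 4 bases after the first of its listed start sites and reads GGAATG. Wwc2 matches begin 203, 94 and 79 bases before the start, and the Ptpn14 match 146 bases before it. Amot rose with no match in its window, and Ptpn14 held a match with a log2 difference of 0.096. The windows of Amot, Lats2 and Amotl2 lie wholly inside the gene bounds given above, so sequence at the outer 5′ ends of these genes was not searched. For 9 of the 12 windows, Amot's among them, the 50 bases after the start were found in a GENCODE transcript of the gene. A match describes letters in the window and says nothing on whether a factor binds there.

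The windows of the genes that rose are printed in full, 5′ to 3′ on the gene's strand, with matches in capitals. They are chr9:102717554-102717853 (plus strand) for Amotl2, chr14:57746074-57746373 (minus strand) for the first Lats2 start and chrX:145487590-145487889 (minus strand) for Amot, and their GC contents are 68.7%, 71.7% and 46.0%.
Amotl2: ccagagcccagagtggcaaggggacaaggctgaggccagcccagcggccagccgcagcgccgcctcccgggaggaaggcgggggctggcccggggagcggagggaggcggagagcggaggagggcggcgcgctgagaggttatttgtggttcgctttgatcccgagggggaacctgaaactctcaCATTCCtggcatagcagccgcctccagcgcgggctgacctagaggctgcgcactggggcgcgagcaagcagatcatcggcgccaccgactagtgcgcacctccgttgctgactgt
Lats2: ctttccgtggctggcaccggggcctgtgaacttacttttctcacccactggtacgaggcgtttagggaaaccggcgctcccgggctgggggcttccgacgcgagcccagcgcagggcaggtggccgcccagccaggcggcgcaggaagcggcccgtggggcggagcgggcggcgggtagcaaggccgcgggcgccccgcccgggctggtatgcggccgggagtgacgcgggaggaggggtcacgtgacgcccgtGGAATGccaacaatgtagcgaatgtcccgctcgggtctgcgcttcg
Amot: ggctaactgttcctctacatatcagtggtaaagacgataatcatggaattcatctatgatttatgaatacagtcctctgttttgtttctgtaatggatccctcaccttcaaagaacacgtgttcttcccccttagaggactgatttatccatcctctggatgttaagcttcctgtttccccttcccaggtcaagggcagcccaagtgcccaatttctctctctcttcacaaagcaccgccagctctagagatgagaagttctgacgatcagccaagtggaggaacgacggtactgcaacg

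**Figure D4:**
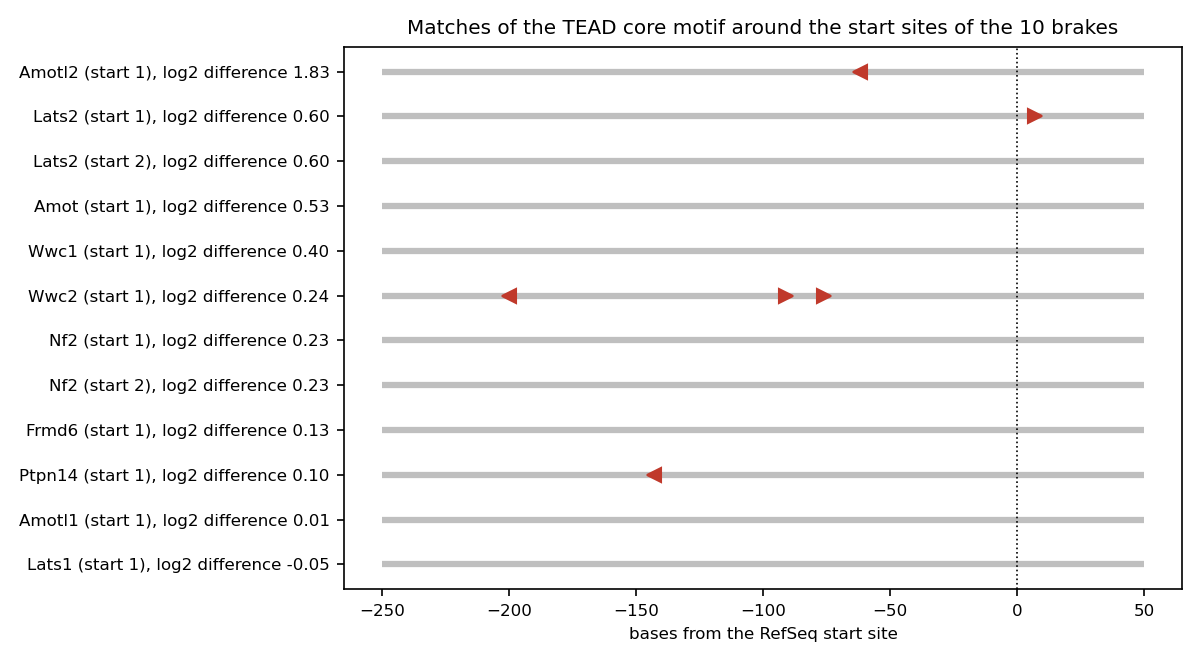
Position of GGAATG matches (triangles, pointing right where the match is on the gene's strand and left where it is on the other) in the 12 RefSeq start-site windows of the 10 brakes. The horizontal axis is bases from the start site, grey bars are the windows, and rows are ordered by the YAP minus EV log2 difference. Matches lie in 4 of the 12 windows.

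Few genes in other parts of the Hippo pathway passed the test. In 7 lists (core kinases, other kinases upstream of LATS, the STRIPAK phosphatase complex, Ajuba LIM proteins, junction and polarity partners, ubiquitin and tankyrase regulators, and family relatives) 78 genes were tested, of which 1 rose, 0 fell and 77 did not pass. That is close to the background of 0.934% higher, and 62 of the 78 log2 differences lay within 0.25 of 0. The others reached from -1.13 (Tnik) to 1.66 (Sike1), and failing the test with 4 libraries a group does not show that a gene was unchanged. The median was 0.026, against 0.234 for the brakes, and both sets were chosen with earlier results of these data known.

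**Figure D5:**
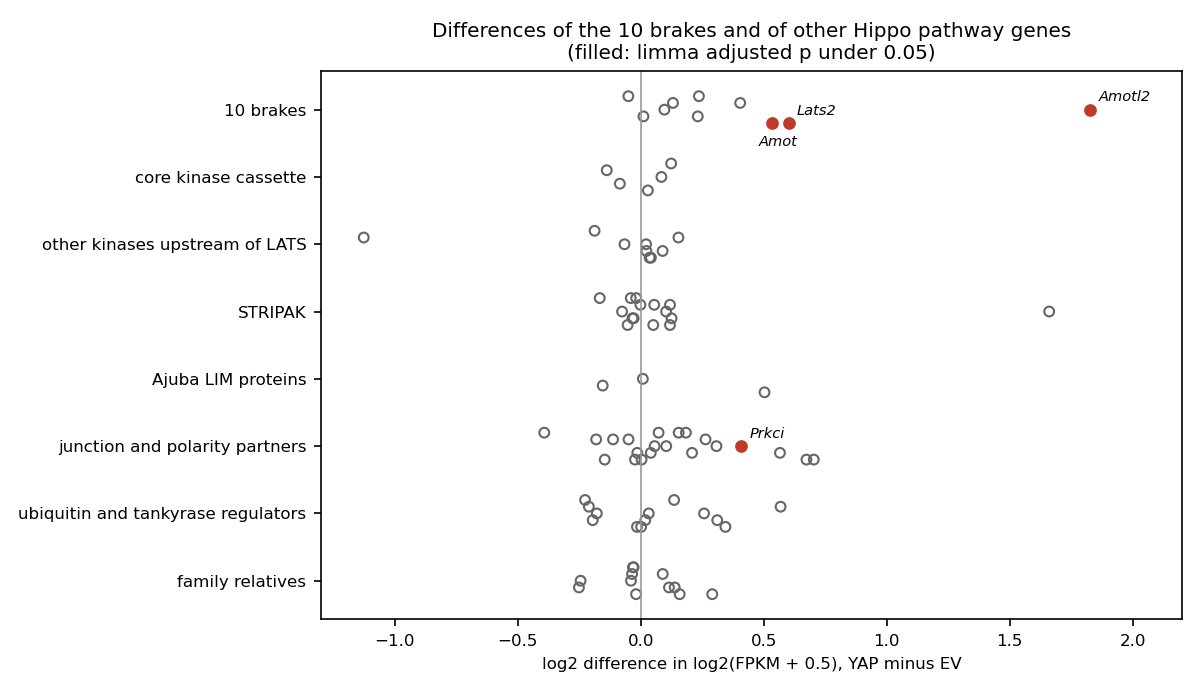
YAP minus EV differences in log2(FPKM + 0.5) (horizontal axis) for the 10 brakes and for 78 tested genes in 7 other Hippo pathway lists, 1 point a gene, spread vertically for legibility only. Filled points passed an adjusted p of 0.05 in limma and are named, 3 among the brakes and Prkci elsewhere.

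None of the 5 core genes passed, that is the kinases Stk3 and Stk4 that activate LATS, their scaffold Sav1, and the LATS co-activators Mob1a and Mob1b, and the list's median was 0.029. Stk4 stood at 6.86 ± 0.574 and 7.53 ± 0.802 FPKM (adjusted p = 0.647) and Sav1 at 24.9 ± 1.81 and 26.4 ± 1.15 FPKM (adjusted p = 0.647). Of 9 other kinases upstream of LATS 0 passed, with Tnik at 2.80 ± 0.910 and 0.994 ± 0.304 FPKM (log2 -1.13, adjusted p = 0.0946) and Mink1 at a log2 difference of -0.19 (adjusted p = 0.329).

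Of 15 tested STRIPAK genes, which encode a phosphatase complex that dephosphorylates the kinases STK3 and STK4, 0 passed. The 2 with the smallest p were Stk24 (adjusted p = 0.405) and Sike1, which had 4.85 ± 0.213 and 25.5 ± 24.8 FPKM (adjusted p = 0.365), a spread within the YAP group as large as its mean. Of 3 Ajuba family genes, whose LIM proteins hold LATS inactive at junctions, 0 passed, and Ajuba itself had 15.8 ± 0.996 and 22.6 ± 2.77 FPKM (log2 0.50, adjusted p = 0.0588) while Limd1 had 14.0 ± 0.323 and 12.6 ± 1.01 FPKM (adjusted p = 0.423).

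Among 21 tested junction and polarity partners 1 rose, Prkci, the atypical protein kinase C of the apical polarity complex, from 22.5 ± 2.00 to 30.2 ± 5.06 FPKM (log2 0.41, SE 0.0746, limma adjusted p = 0.0493). That call was lost without any 1 library (adjusted p 0.0689 to 0.159). Of the other partners, 3 that were named after their values were seen had larger differences and did not pass: the scaffold Magi3 (log2 0.70, adjusted p = 0.0593), the angiomotin-binding scaffold Mpdz (0.57, adjusted p = 0.077) and the polarity protein Pard6b (0.67, adjusted p = 0.0771). Of 13 ubiquitin and tankyrase regulators, some of which control angiomotin or LATS turnover, 0 passed, with Siah1a (log2 -0.23, adjusted p = 0.218) and the ubiquitin ligase Rnf146 (-0.21, adjusted p = 0.28) at the smallest p. Of 12 tested family relatives 0 passed, with the LATS-related kinases Stk38 (log2 0.16, adjusted p = 0.397) and Stk38l (-0.25, adjusted p = 0.488) at the smallest p.

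Profiles like those of the rising brakes were sought among protein-coding genes by the root mean square difference over the 8 libraries, after centring each gene on its EV mean in log2(FPKM + 0.5). The 3 genes nearest to Lats2 were Sqle, squalene epoxidase (0.072), the transcription factor Osr1 (0.0785) and Acat2, an acetyl-CoA acetyltransferase (0.0801). Nearest to Amot were Pik3cd, a catalytic PI3-kinase subunit (0.102), the adenylate kinase Ak5 (0.109) and Spry1, an inhibitor of growth factor signalling (0.111). Nearest to Amotl2, at larger distances, were Edn1, the precursor of endothelin 1 (0.285), Ifitm1 (0.357) and the anion transporter Slc26a7 (0.364), all scarce genes with EV means of 0.685, 2.41 and 0.322 FPKM. Edn1 differed by 1.91 within GFP and 1.61 within mCherry and Ifitm1 by 1.85 and 1.29, smaller gaps than that of Amotl2, and Slc26a7 by 2.39 and 0.50, a larger one. Of the genes found in this way, Slc26a7 (limma adjusted p = 0.187) and Pik3cd (0.156, EV mean 1.89 FPKM) did not pass the test. The others did, with adjusted p from 0.00724 to 0.033, but they were picked for likeness to genes that rose.

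The authors' deposited table gives an FPKM value for a pooled control and a pooled YAP arm without naming their libraries. It comes from the same series, so its calls are no independent evidence. It called the same 3 brakes significant, where 3.04% of the genes it tested were significant and higher and 2.91% significant and lower. It lists Amotl2 at 224 and 597 FPKM (q = 0.00050), Lats2 at 22.5 and 35.8 FPKM (q = 0.00050) and Amot at 26.1 and 38.3 FPKM (q = 0.00050). These 3 have the same p-value (5e-05) and q-value in the authors' deposited table, as do Cyr61, Ctgf and Ankrd1. Such values do not rank the genes by strength of evidence. Wwc2 was not significant in the authors' deposited table (17.1 and 20.3 FPKM, q = 0.0572). For Amotl2 the authors' deposited table sits 2.50 times above the per-library mean in the control arm and 1.67 times above it in the YAP arm, so its log2 ratio there is 1.41. The authors' deposited table lists Amotl1 with 67.0 and 66.1 FPKM, which is 2.29 and 2.24 times its per-library means, and did not call it (q = 0.97985). For Lats2, Amot, Lats1, Wwc2 and Frmd6 the authors' deposited table is 1.01 to 1.19 times the per-library mean in both arms. The remaining brakes departed more: the authors' deposited table is 1.52 and 1.53 times the per-library mean for Ptpn14, 1.49 and 1.29 times for Nf2, and 1.13 and 1.44 times for Wwc1. For Nf2 the log2 ratio in the authors' deposited table is 0.026, against a fitted difference of 0.23 over the per-library values. The locus it lists for Lats2 spans 177387 bases, against 68727 for the gene in GENCODE M21. For Amotl1 its locus spans 73518 bases, against 103091, and does not enclose the gene. The part of these bounds in the listed levels was not tested.

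All 15 fibroblast markers were detected, with a summed level of 11200 to 12000 FPKM with EV and 11100 to 12700 FPKM with YAP. Detection alone does not identify the cells, as 16 of 17 macrophage and leukocyte markers also passed the filter on level. Among the fibroblast markers Lum, Pdgfra and Postn were lower with YAP, by log2 -1.31, -0.55 and -0.54 (limma adjusted p = 0.0122, 0.0282 and 0.0282). The other 12 did not pass. Of all 15 log2 differences 4 lay above 0 and 11 below, the largest rise being that of S100a4 (0.44, limma adjusted p = 0.0946). Of 17 macrophage and leukocyte markers 16 were tested and C1qa, C1qc and Ms4a7 were lower, by log2 -0.96, -0.90 and -1.53 (limma adjusted p = 0.0169, 0.0353 and 0.024), while the sum over all 17 was 333 to 466 FPKM with EV and 188 to 416 FPKM with YAP. The other 13 tested did not pass, and 2 of these lay above 0, Laptm5 (log2 0.36, limma adjusted p = 0.543) and Tyrobp (0.049, adjusted p = 0.955). Ptprc, the pan-leukocyte marker, lay between 0.448 and 1.37 FPKM in all libraries. Its means were 0.712 ± 0.396 with EV and 0.906 ± 0.376 FPKM with YAP, below the filter. Csf1r, the macrophage growth factor receptor, lay between 3.89 and 9.81 FPKM, with a log2 difference of -0.056 (limma adjusted p = 0.912). In bulk RNA, fewer cells of a type and less RNA per cell cannot be told apart, and the part of these markers in the differences of the brakes was not tested.

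Of 8 endothelial markers, relevant because angiomotin was first studied in endothelium, the defining genes Pecam1 and Cdh5 were at or near 0 (at most 0.52 and 0.112 FPKM in any library), and only Erg passed the filter, at 17.3 ± 1.57 and 10.3 ± 0.874 FPKM (log2 -0.71, adjusted p = 0.017). Below the filter and so not tested, the receptors Kdr (0.349 to 0.887 FPKM with EV, 1.06 to 1.28 FPKM with YAP) and Tek (0.198 to 0.628 and 0.87 to 2.28 FPKM) lay the other way without overlap. Of 8 epithelial markers Epcam was listed at 0 in all 8 libraries and Cdh1 at no more than 0.312 FPKM, while the keratin Krt7 was higher with YAP (0.956 ± 0.341 and 6.94 ± 3.31 FPKM, adjusted p = 0.0263). The other keratins tested did not pass and differed in sign, with Krt19 at 11.2 ± 4.36 and 22.5 ± 8.45 FPKM (log2 0.98, adjusted p = 0.132) and Krt18 at 3.50 ± 0.549 and 2.80 ± 1.05 FPKM (log2 -0.34, adjusted p = 0.558). Krt8, below the filter, averaged 0.408 and 0.225 FPKM. Of 5 skeletal muscle markers Des alone was tested, at 4.05 ± 1.33 and 3.39 ± 0.373 FPKM (adjusted p = 0.738). Of these 8 marker calls, 0 to 5 held when 1 library was left out.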

How the data were processed

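Polyadenylated RNA of 8 libraries was prepared with Trizol and a stranded TruSeq mRNA kit, per the labels' protocols. Gene-level FPKM for each library were made and deposited by the authors. The submitters' processing notes name TopHat, Cufflinks and mm10, with no version. Whether counting used strand, any further scaling and the annotation release are not given in the sources used here. The authors' comparison table holds FPKM, p-values and q-values for pooled arms, per the file headers, and was used only where it is named. The authors' sheet that repeats its significant genes was not used.

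Of 48641 rows, 114 rows of 49 repeated identifiers were left out, and 48083 of the remaining 48527 identifiers matched GENCODE M21 (GRCm38), the source of gene coordinates. Those averaging at least 1 FPKM were tested (13276 genes) on log2(FPKM + 0.5), so fold changes of low genes are understated, with limma 3.58.1 in R 4.3.3 (variance trend, terms for vector and reporter, Benjamini-Hochberg adjustment over all genes, threshold 0.05). Effects within reporters and their difference came from a fit of 4 arm means with 1 shared spread. The steps were tested on simulated data. Alternatives covered the pseudocount, filter, scaling, variance trend, reporter term, a replicate block and the libraries included. Table columns that matched no sample numbered 0.

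Fragment counts were not used here and depth is known only in relative terms: preferred ratios among values under 0.1 FPKM put the other libraries at 0.633 to 1.1 times the depth of EV replicate 1, with EV replicate 2 uncertain (0.551, or 1.1 with a limit of 0.05). The gene Gm3788 held 13.5% to 29.1% of the FPKM sum, while median-ratio factors ranged from 0.991 to 1.01. Promoter windows are from RefSeq (GRCm38.p6), matched by symbol for all 10 genes, and protein sequences were not used. The members, 13 other gene lists and tests were chosen with earlier results of these data known. Named genes are all members, list genes past the threshold (or, in a list with none, the 2 with the smallest p), 4 label-check genes, 7 defining markers and the 3 nearest profiles of each member that passed. Outside this rule, Magi3, Mpdz, Pard6b, Tnks2, S100a4, Laptm5, Tyrobp, Kdr, Tek, Krt8, Krt18 and Krt19 were named after their values were seen. Genes that overlap a member by position are also named, and Stk3, Mob1a and Mob1b are given only to complete their list. Tables and plots used Python 3.11.15, pandas 2.3.3, numpy 2.4.6 and matplotlib 3.10.9.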

Additional observations from a re-analysis of the deposited data

Results flagged for a closer look

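Wwc1 in EV replicate 3, at 15.5 FPKM, stood far from the other EV libraries (3.46 to 4.21 FPKM), and without it the log2 difference of Wwc1 was 0.91. Lats1 in EV replicate 4, at 15.3 FPKM, stood apart from the other EV libraries, which were all at 13.4 or 13.5 FPKM. Such gaps were looked for in 20 groups of 4 libraries, and chance flags about 1 in 20 groups.

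Amotl1 lay on opposite sides of 0 in the reporters, since both YAP libraries were above both EV libraries within GFP (log2 0.13) and below them within mCherry (log2 -0.11). The difference between these effects was -0.235 on the log2 scale, with an unadjusted p of 0.0863 and an adjusted p of 0.592 in limma.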

How the results depend on the processing

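The number of brakes called higher was 3 over all libraries. It was 1 without the reporter term (Lats2), 0 with a replicate block that pairs libraries by number, 1 with GFP libraries alone (Amotl2), 0 with mCherry libraries alone, and 0 to 2 without any 1 library. It was 2 with no filter or no variance trend (Amot lost, adjusted p = 0.062 and 0.0655) and 3 with another pseudocount, a stricter filter or another scaling, and no brake was called lower under any of the 19 alternatives. With the replicate block the limma adjusted p was 0.118 for Amotl2, 0.121 for Lats2 and 0.173 for Amot. Whether the numbers pair libraries is not known. Deviations of same-numbered libraries from their group means correlated by -0.015 to 0.0897, and an EV library correlated best with its own number in 1 of 4 cases. With so few libraries these correlations cannot decide whether same-numbered libraries were handled together. No brake passed for the reporter (2 at an unadjusted p under 0.05) or for the difference between reporters (1 at an unadjusted p under 0.05) in limma, nor under the 15 alternatives run. Amotl1 changed sign with mCherry libraries alone (log2 -0.106), and without EV replicate 1 (-0.0072), EV replicate 2 (-0.018), YAP replicate 1 (-0.0020) or YAP replicate 2 (-0.023), with a range of -0.023 to 0.053 without any 1 library. With mCherry libraries alone Lats1 was at 0.011 and Wwc1 at -0.38. Differences of Amotl2, Lats2 and Amot stayed above 0 under all 19 alternatives (1.29 to 2.37, 0.49 to 0.71 and 0.46 to 0.60), and the causes of the lost calls were not tested. Over all genes, 124 were called higher and 109 lower. These were 75 and 71 with no filter, 78 and 88 without the variance trend, 80 and 70 without the reporter term, 6 and 9 with the replicate block, 6 and 10 with GFP and 5 and 4 with mCherry libraries alone, and 25 to 56 and 21 to 58 without any 1 library.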
